A study of Mus musculus with 14 samples.

Results

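Irx2, Irx3, Irx5, Irx6, Six2, Six3 and Six6 encode homeodomain transcription factors and had regions whose openness differed between groups of mouse yolk sac progenitors, either between an Ezh2 knockout and a control or between 2 knockouts. They are the 7 of 9 genes, chosen by symbol, that had at least 1 row in the authors' lists of differing regions. The remaining members, Irx1 and Irx4, have no row in the lists used here. The 7 genes are among 6687 with a row, and their 22 regions are among 9954.

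Open chromatin was profiled by ATAC-seq, which tags accessible DNA with the Tn5 transposase, in erythro-myeloid progenitors sorted from C57BL/6 yolk sacs at E10.5. Such progenitors are a transient source of erythroid and myeloid cells in the embryo. Each library came from 500 sorted cells. Every group was homozygous for the floxed allele (Ezh2 fl/fl), Ezh2 being the methyltransferase of the Polycomb repressive complex PRC2, which acts on lysine 27 of histone H3. The 5 Tie2 KO samples carried Tie2-Cre Tg/+, with Cre expressed in endothelial cells and so also in their blood descendants. The 3 Vav KO samples carried Vav-Cre Tg/+, with Cre expressed across the blood lineages. The 3 Tie2 WT samples had the floxed allele and no Tie2-Cre transgene (Tie2-Cre +/+). A further 3 Vav WT samples (Vav-Cre +/+) are named by none of the lists. Vav KO was set against Tie2 WT, a comparison in which genotype and Cre line cannot be told apart. The lists cover regions that include a gene start or end less than 5 kb upstream of it. For each region they hold 1 log2 fold change with its adjusted p and nothing per sample, so the depth and the spread between replicates are unknown. The labels name no embryo or litter behind a sample.

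Irx (Iroquois) proteins belong to the TALE class of homeodomain factors and pattern the neural tube, heart, limb and kidney. The mammalian Irx genes form a pair of clusters that arose by duplication, one with Irx1, Irx2 and Irx4 and the other with Irx3, Irx5 and Irx6. Six-family proteins, named after the fly gene sine oculis, act with Eya and Dach cofactors in the eye, forebrain, kidney and muscle. Starts of such developmental regulators are often rich in CpG and are marked by PRC2 in many cell types where the genes are silent.

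For 6 of the 9 genes, the RefSeq promoter table (build GRCm38.p6) had an entry, while Irx1, Irx5 and Irx6 had none. Of these, 5 are printed because they run from a start wholly inside a differing region to a start with no region near it. Each sequence is the 250 bases before the start, 5′ to 3′ on the strand of the gene, with every CpG in capitals. Six2 is at chr17:85688255-85688504 (minus strand) and Six3 at chr17:85620584-85620833 (plus). Six6 is at chr12:72939632-72939881 (plus), Irx2 at chr13:72628570-72628819 (plus) and Irx4 at chr13:73260247-73260496 (plus).
Six2: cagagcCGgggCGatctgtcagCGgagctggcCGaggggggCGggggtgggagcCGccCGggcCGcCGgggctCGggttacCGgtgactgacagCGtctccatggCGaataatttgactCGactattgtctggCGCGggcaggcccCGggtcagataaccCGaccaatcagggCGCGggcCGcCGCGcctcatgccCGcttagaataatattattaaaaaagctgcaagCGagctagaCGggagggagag
Six3: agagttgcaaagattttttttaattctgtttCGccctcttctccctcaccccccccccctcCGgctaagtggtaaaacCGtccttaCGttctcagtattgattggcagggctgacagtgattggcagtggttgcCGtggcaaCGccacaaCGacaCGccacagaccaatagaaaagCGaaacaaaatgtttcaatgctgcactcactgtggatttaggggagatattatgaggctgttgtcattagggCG
Six6: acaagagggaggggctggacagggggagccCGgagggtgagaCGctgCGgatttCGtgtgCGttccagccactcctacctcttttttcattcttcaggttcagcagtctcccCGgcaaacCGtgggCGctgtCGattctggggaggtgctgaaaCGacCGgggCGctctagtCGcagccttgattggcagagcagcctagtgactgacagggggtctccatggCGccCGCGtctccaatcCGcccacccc
Irx2: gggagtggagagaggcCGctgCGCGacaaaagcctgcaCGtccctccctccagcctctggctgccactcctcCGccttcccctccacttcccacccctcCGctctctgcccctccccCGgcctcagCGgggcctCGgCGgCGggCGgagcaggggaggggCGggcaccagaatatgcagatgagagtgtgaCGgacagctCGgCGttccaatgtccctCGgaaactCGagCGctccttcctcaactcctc
Irx4: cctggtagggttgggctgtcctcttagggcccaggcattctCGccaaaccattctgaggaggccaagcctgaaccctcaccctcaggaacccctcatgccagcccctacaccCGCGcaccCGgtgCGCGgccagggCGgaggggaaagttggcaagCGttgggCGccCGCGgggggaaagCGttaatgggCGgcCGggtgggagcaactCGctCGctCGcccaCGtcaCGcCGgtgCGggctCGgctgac

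The Six2 sequence held 26 CpG dinucleotides, more than 90.4% of the 32851 RefSeq promoters. All its 250 bases lay inside a region higher in Tie2 KO, both against Tie2 WT and against Vav KO. Six3 had the fewest CpG of the 6 members, 10, and its 250 bases lay wholly inside a region higher in Tie2 KO than in Vav KO, but outside the region called against Tie2 WT. For Six6, with 17 CpG, 69 of the bases were covered against Tie2 WT and 180 against Vav KO. Irx2 had 19 and Irx4 had 22 CpG, and no listed region touched either sequence. Irx3, not printed, had 13 and was not touched either. The median was 6 over all promoters and 10 over those of protein-coding genes, so Six3 was at the protein-coding median and the other 5 were above it.

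The motif GGGCGG, the letters of a GC box, sought on both strands, was present before 4 of the 6 starts (Irx2, Irx4, Six2 and Six6) and in 42.6% of protein-coding and 32.7% of all promoters. No member held TATAAA, the letters of the classic TATA box, against 11.6% of protein-coding promoters. The motif AGATAA of GATA factors was found in 1 member, Six2, against 8.81% of protein-coding promoters. These matches describe the letters only.

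**Figure D1:**
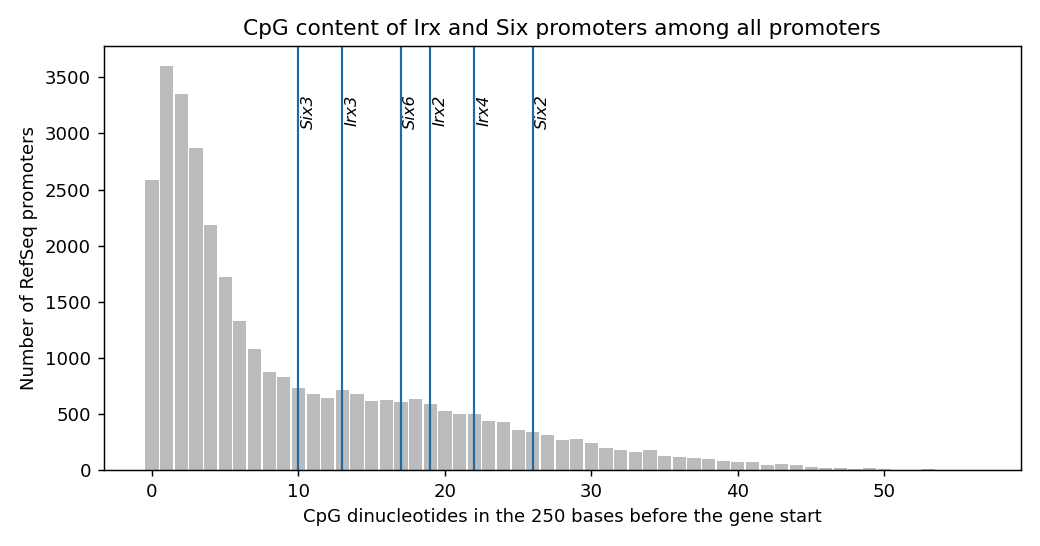
Number of CpG dinucleotides in the 250 bases before the start (x axis) against the number of RefSeq promoters (y axis, grey bars), with the 6 members in the table as blue lines. The members sit between 10 (Six3) and 26 (Six2), against a median of 6 over all promoters and 10 over protein-coding ones.

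In Tie2 KO progenitors, chromatin was more open near most of these genes than in Tie2 WT. Of the 9 members, 6 had a higher region (Irx2, Irx3, Irx6, Six2, Six3 and Six6) and 0 had a lower one. Among all protein-coding genes of the reference table, 11.5% were paired with a higher region and 2.51% with a lower region. The authors' deposited table puts the log2 fold changes of the 9 member regions between 0.82 and 1.43. Their median was 1.07, beside 1.02 over all 2959 higher regions, and 7 of the 9 were at or above that list median. In size of change, then, the members sat near the middle of the list.

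Irx6, the last gene of the chromosome 8 cluster, had the smallest adjusted p of the members. The authors' deposited table gives its region over the start (chr8:92672702-92675000) a log2 fold change of 1.24 and adjusted p 5.99e-08. Irx3, a regulator of neural tube patterning and of cardiac conduction, had 3 regions, none of which reached its start. By the authors' deposited table they lay 1547, 2847 and 4047 bp upstream with log2 fold changes 1.33, 0.82 and 1.07. The 3 regions stood almost end to end over the upstream flank. Few genes had as many: 27 of the 2833 genes in this list (0.953%) had 3 or more regions. Merging regions within 1 kb joins the Irx3 regions into 1, and with this setting the member regions numbered 6 in place of 9. Irx5, located between Irx3 and Irx6, had no row in this comparison. Irx2, which is expressed in the developing heart, lung and nervous system, had 1 region (chr13:72622902-72624600), 4196 bp upstream. Its log2 fold change was 1.02 and its adjusted p, 0.00984, was the largest of the 9 according to the authors' deposited table.

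Six2, which maintains the nephron progenitors of the kidney, had 2 regions. The authors' deposited table gives 0.98 (log2 fold change) for the one over the start (chr17:85687302-85689400) and 1.43, the highest member value here, for the one 2047 bp upstream. Six3, required for the forebrain and eye, had a region 1733 bp upstream that also covers the start of Six3os1, the noncoding RNA gene on the opposite strand. That region has a log2 fold change of 1.2 and adjusted p 3.67e-07 by the authors' deposited table. Six6, a regulator of the retina and pituitary, had a region that stopped 181 bp short of the start. The authors' deposited table lists it at a log2 fold change of 1.04 and adjusted p 4.25e-05.

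The lists pair a region only with genes that start in it or downstream of it, so a region inside a gene can stand under a neighbour's name. By position, 5 more higher regions lay over a member's body while being paired with another gene. Over Irx2 there were 2, listed under the opposite-strand RNA gene Gm20554, with log2 fold changes 1.08 and 1.05 by the authors' deposited table. Over Six3 there was 1, listed under Six3os1, at 1.24 by the authors' deposited table. Six6 was overlapped by 2, listed under 4930447C04Rik, and each stood at 0.93 according to the authors' deposited table. With these added, Irx2, Irx3 and Six6 had 3 higher regions each, Six2 and Six3 had 2 each and Irx6 had 1. The reference table starts Irx2 at 72624430 where the lists have 72628797, and the region called upstream of Irx2 covers the first of these positions. For Six3 the reference table has 85613608 where the lists have 85620834. By that reference start, the Six3 region called upstream lies inside the gene. The Six3 region called against Vav KO covers the start of the lists but not the reference start.

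**Figure D2:**
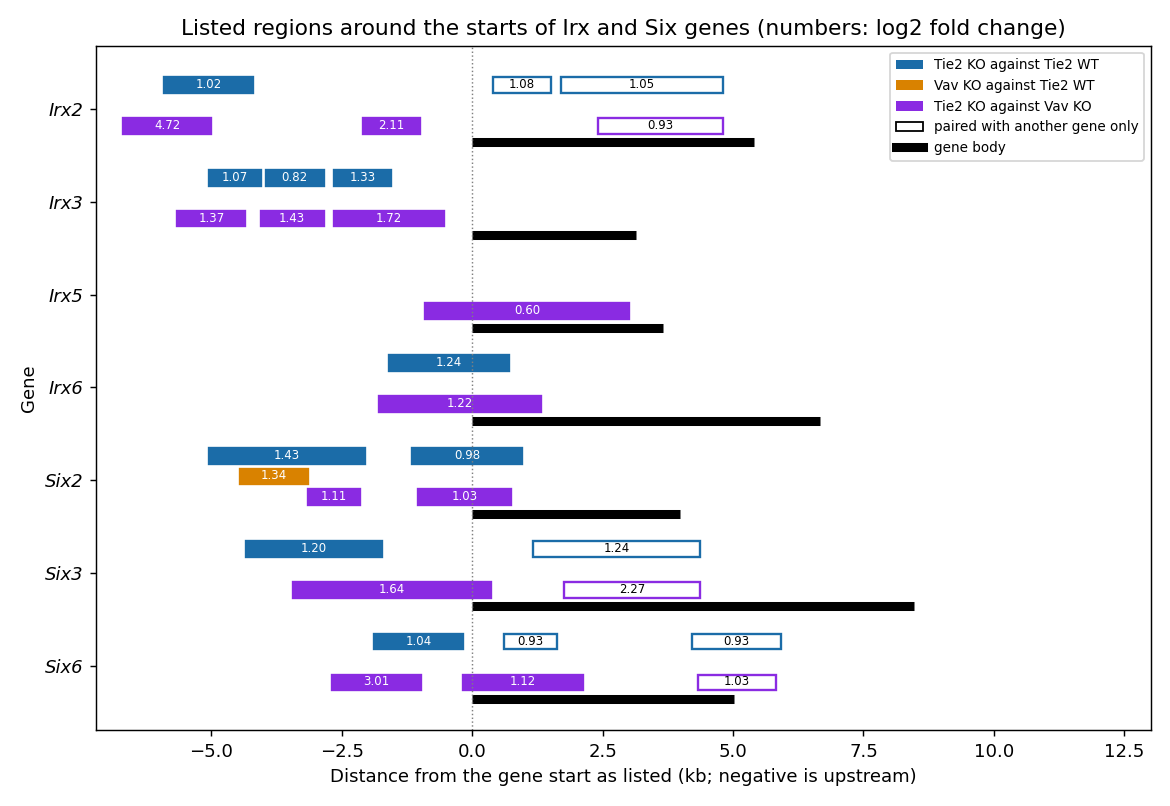
Listed regions (bars) by distance from the gene start in kb (x axis, negative is upstream) for the 7 genes with a row, coloured by comparison, with the gene body as a black line. Filled bars are paired with the named gene and open bars only with another gene. All Irx3 regions lie upstream of the start, those of Irx5 and Irx6 cover it, and among these genes Six2 has the single bar for Vav KO against Tie2 WT.

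Vav KO progenitors had 1 listed region near these genes. It was higher than in Tie2 WT and lay 3147 bp upstream of Six2 (chr17:85691402-85692700). The authors' deposited table gives it a log2 fold change of 1.34 and adjusted p 0.000624, beside a median of 1.35 over all 1313 higher regions. Thus 1 of 9 members was paired with a higher region and 0 with a lower one, where 5.29% of protein-coding genes had a higher and 2.59% a lower region. This stretch lies wholly inside the upstream Six2 region that was higher in Tie2 KO than in the same Tie2 WT samples. No Irx gene had a row. The nearest region listed for Vav KO against Tie2 WT was 991 kb from Irx2 and 141 kb from Irx6.

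Set directly against Vav KO, Tie2 KO had a higher region at 7 of the 9 members and a lower region at 0. For protein-coding genes at large, 11.1% were paired with a higher and 6.35% with a lower region. Irx5 has a row only through this comparison. The 12 member regions had a median log2 fold change of 1.40, computed from the authors' deposited table, beside 1.16 over all 2873 higher regions. Of the 12, 8 were at or above the list median. They spread far more than against Tie2 WT, between 0.60 at Irx5 and 4.72 at Irx2 by the authors' deposited table. The Tie2 KO samples are the same in both comparisons, so the counts are not independent.

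Irx2 had the highest single value. Its farther region, 4996 bp upstream (chr13:72622102-72623800), ranked 2 of 2873, and the authors' deposited table gives it a log2 fold change of 4.72 and adjusted p 4.3e-07. Its nearer region, 996 bp upstream (chr13:72626702-72627800), ranked 195, at 2.11 and adjusted p 7.86e-06 by the authors' deposited table. Six6 had a region 981 bp upstream (chr12:72937202-72938900) that ranked 31, at 3.01 and adjusted p 8.02e-06 by the authors' deposited table. The authors' deposited table has a second Six6 region, over the start, at 1.12. In both genes the larger fold change was in the region farther upstream.

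Irx3 again had 3 regions. The authors' deposited table places them 547, 2847 and 4347 bp upstream with log2 fold changes 1.72, 1.43 and 1.37. In this list, too, 27 genes (0.98% of 2755) had 3 or more regions, and merging within 1 kb joins those of Irx3. Irx6 had 1 region over its start at 1.22, adjusted p 1.52e-06, by the authors' deposited table. Irx5, which acts in cardiac repolarization and in retinal bipolar cells, had a region of 3899 bp over its start, the widest of the 22. Its log2 fold change in the authors' deposited table was 0.60 (adjusted p 1.73e-05), rank 2834 and close to 0.58, the smallest absolute value in any of the lists. That region is also paired with Crnde, a noncoding RNA gene on the opposite strand.

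Six3 had a region of 3799 bp over its own start and that of Six3os1, at 1.64 and adjusted p 3.94e-06 by the authors' deposited table. Another, inside Six3 and listed under Six3os1, stood at 2.27 according to the authors' deposited table. For Six2 the authors' deposited table has 1.03 over the start and 1.11 at 2147 bp upstream, the lowest values among the Six-family members. Six2 is also the member with a higher region in Vav KO than in Tie2 WT. The upstream Six2 region called between the knockouts ends at 85691400 and the one called for Vav KO against Tie2 WT begins at 85691402, side by side and without overlap.

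**Figure D3:**
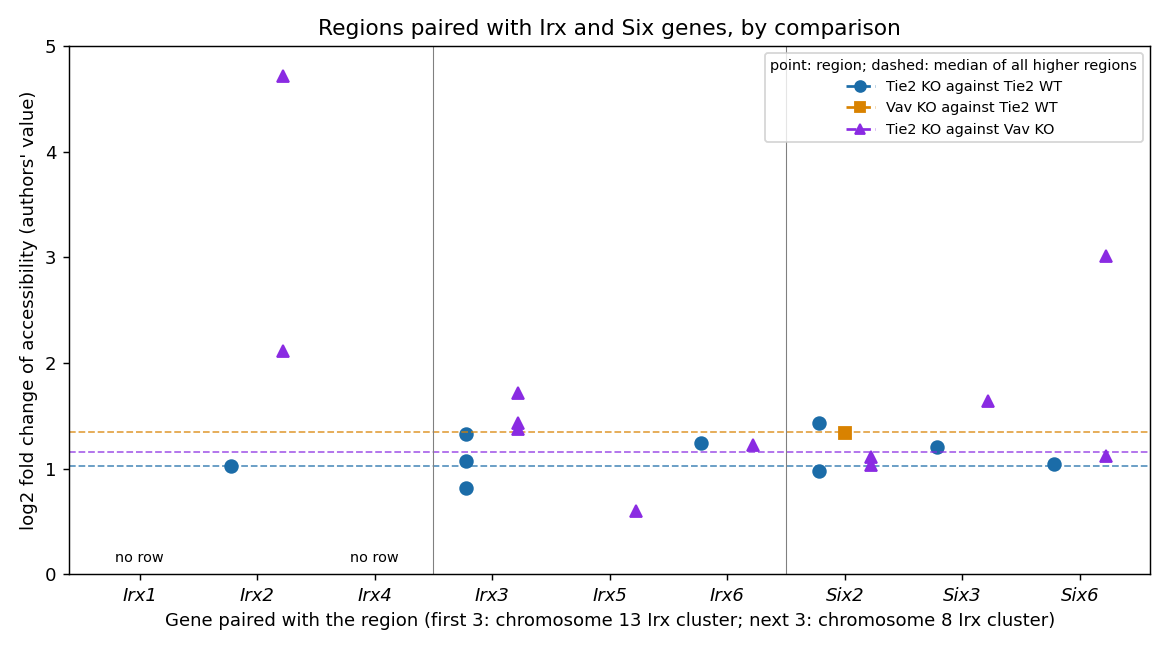
The log2 fold change of every region (y axis, the authors' value) paired with each gene (x axis), with a point per region, coloured by comparison, and the median of all higher regions of each comparison as a dashed line. Values of Tie2 KO against Tie2 WT stay between 0.82 and 1.43, while those of Tie2 KO against Vav KO reach 4.72 at Irx2 and 3.01 at Six6. Irx1 and Irx4 have no point.

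Each of the 9 member regions called in Tie2 KO against Tie2 WT overlapped, by at least 1 bp, one of the 12 called in Tie2 KO against Vav KO. The share of all higher regions with such an overlap was not computed, and both comparisons use the same Tie2 KO samples. The overlap therefore cannot be read as particular to these genes. At Irx6 the authors' deposited table has log2 fold changes of 1.24 against Tie2 WT and 1.22 against Vav KO, and over the Six2 start it has 0.98 against Tie2 WT and 1.03 against Vav KO. Those values were close to each other. At Irx2 they were far apart, 1.02 against Tie2 WT and 4.72 against Vav KO, a difference of -3.70 computed from the authors' deposited table. At Six6 they were 1.04 against Tie2 WT and 3.01 against Vav KO, a difference of -1.97 computed from the authors' deposited table. In these last pairs the regions share 899 of their 1699 bp. Neither Irx2 nor Six6 has a row for Vav KO against Tie2 WT, and without values per sample the gap was not tested.

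As paired in the lists, the Irx clusters differed in how many of their genes had a region, though each has only 3 genes. In the chromosome 13 cluster it was 1 of 3 genes, Irx2, in each of the Tie2 KO comparisons. In the chromosome 8 cluster it was 2 of 3 genes (Irx3 and Irx6) against Tie2 WT and 3 of 3 against Vav KO. Among all protein-coding genes, 11.5% were paired with a higher region against Tie2 WT and 11.1% against Vav KO. Irx1, a regulator of heart and lung development, lay 659 kb from the nearest region of Tie2 KO against Tie2 WT, which is the one upstream of Irx2. Irx4, a factor of the heart ventricle, lay 196 kb from the nearest region of Tie2 KO against Tie2 WT, a lower one with a log2 fold change of -0.62 by the authors' deposited table. Against Vav KO, the nearest region to Irx1 was 658 kb away and the nearest to Irx4 was 442 kb away. Counted by position alone over 1.31 Mb of the chromosome 13 cluster, Tie2 KO had 4 higher and 0 lower regions against Tie2 WT, spanning 8496 bp, and 4 higher and 0 lower against Vav KO, spanning 7196 bp. Over 0.882 Mb of the chromosome 8 cluster it had 4 higher and 0 lower against Tie2 WT, spanning 5496 bp. There it had 5 higher and 0 lower against Vav KO, spanning 11595 bp. By position, then, the clusters had the same number of higher regions against Tie2 WT. How many regions other spans of this length hold was not computed.

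The order of the clusters by size of change differed between the comparisons. Against Tie2 WT, the single Irx2 region (1.02) was below the median of 1.155 for the 4 regions of the chromosome 8 cluster and within their range of 0.82 to 1.33, by the authors' deposited table. Against Vav KO, both regions paired with Irx2 (4.72 and 2.11) were above all 5 regions of the chromosome 8 cluster. The authors' deposited table has those 5 between 0.60 and 1.72. The medians, chromosome 13 minus chromosome 8, differed by -0.14 against Tie2 WT and by 2.04 against Vav KO. The region inside Irx2 that is listed under Gm20554 stood at 0.93 against Vav KO by the authors' deposited table, within the chromosome 8 range. With that region counted as well, the second difference was 0.74. Since Irx2 alone stands for the chromosome 13 cluster, these are differences between 1 gene and 3 others.

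The strongest region within a cluster span against Tie2 WT belonged to no Irx gene. It covered the start of D730050B12Rik, a noncoding RNA gene between Irx2 and Irx4 (chr13:72815502-72818100), and the authors' deposited table gives it a log2 fold change of 2.33 and adjusted p 5.43e-08. Against Vav KO the same start stood at 2.06 by the authors' deposited table.

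**Figure D4:**
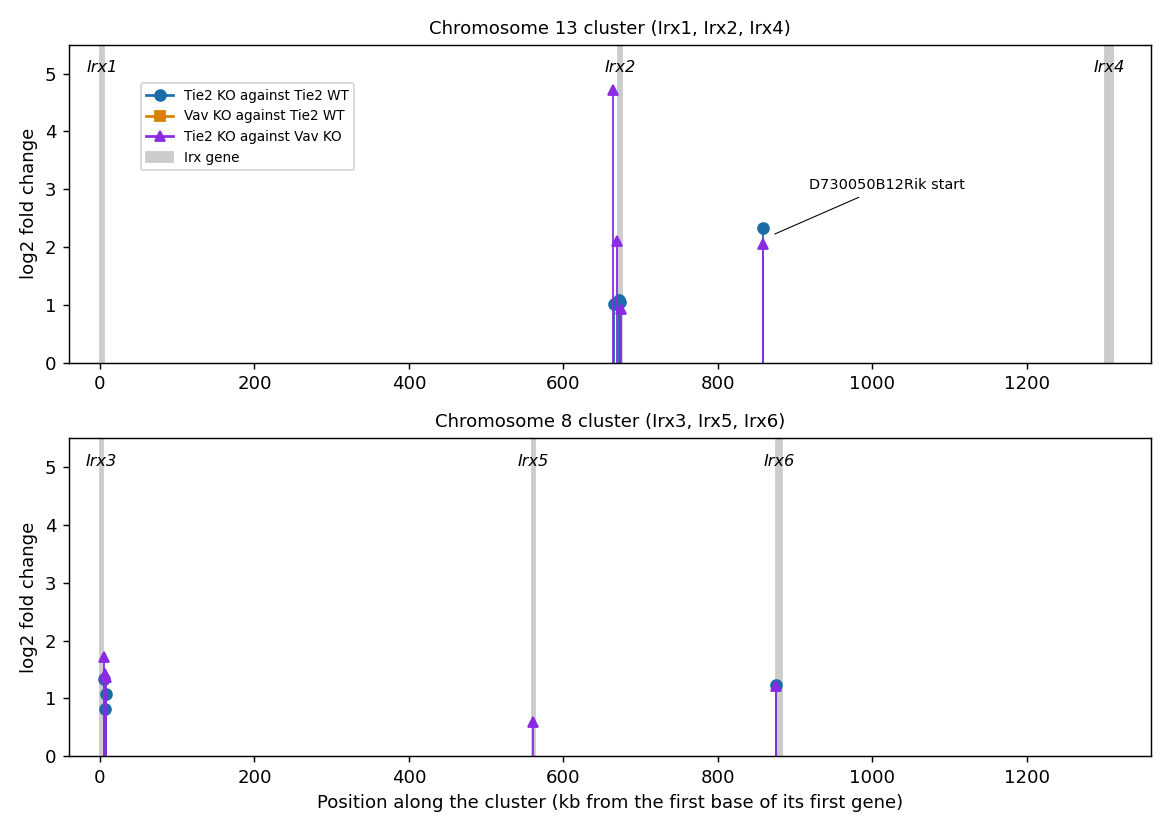
Log2 fold change (y axis) of every listed region within the span of each Irx cluster by position in kb from its first gene (x axis), coloured by comparison, with Irx genes as grey bands. Regions gather at Irx2 and at D730050B12Rik on chromosome 13 and at all 3 Irx genes on chromosome 8, and none is near Irx1 or Irx4.

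Member regions were about as wide as others against Tie2 WT and wider against Vav KO. Their median width was 1699 bp against Tie2 WT, beside 1599 bp over all higher regions, and 1749 bp against Vav KO, beside 1299 bp. Regions of at least 2000 bp made up 4 of 9 member regions against Tie2 WT and 5 of 12 against Vav KO, beside 29.5% and 18.2% of the whole lists. A member's own start was covered by 2 of 9 regions against Tie2 WT and 5 of 12 against Vav KO. Of all higher regions, 55.6% and 43.8% covered the start of any gene paired with them, a wider measure. The Six3 region against Tie2 WT, which covers the start of Six3os1 but not of Six3, would count only under the wider measure.

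Some relatives and partners of the members also had higher regions in Tie2 KO. Against Tie2 WT, the authors' deposited table has log2 fold changes of 1.18 at Eya2 and 1.01 at Eya4, which encode cofactors of Six-family proteins. Against Vav KO, the authors' deposited table has Six4 at 1.5 and Six5 at 1.11.

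Of 12 other TALE homeobox genes, 2 were higher in Tie2 KO against Tie2 WT, Pknox2 at 0.79 and Meis2 at 0.78 by the authors' deposited table, and 0 were lower. With 12 genes, that count is near the 11.5% of protein-coding genes that were higher. Against Vav KO, where the background was 11.1%, 3 were higher, Mkx at 1.07, Pknox2 at 0.61 and Meis3 at 0.59 by the authors' deposited table, and 0 were lower. In Vav KO against Tie2 WT, Meis2 was higher at 0.79 and Meis1, a regulator of blood progenitors, was lower at -1.06, by the authors' deposited table. In that comparison 5.29% of protein-coding genes had a higher and 2.59% a lower region. Among 6 early regulators of the eye and forebrain, tissues where Six3 and Six6 act, 3 were higher in Tie2 KO against Tie2 WT and 0 lower, beside the same 11.5% of protein-coding genes. Otx2 led them at 1.42, followed by Rax at 1.16 and Lhx2 at 0.86, by the authors' deposited table. Against Vav KO, 5 were higher and 0 lower, beside 11.1% of protein-coding genes, led by Otx2 at 1.74 and Pax6 at 1.23 by the authors' deposited table. Pax6 was the single gene of that list with a row for Vav KO against Tie2 WT, lower at -0.94 by the authors' deposited table.

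Ezh2 itself has no row in the lists used here. The lists hold only openness near gene starts, so its deletion could not be checked from them. Tek, whose regulatory sequence drives Tie2-Cre, stood at 2.9 in Tie2 KO against Tie2 WT and 2.92 against Vav KO by the authors' deposited table. Vav1 was higher in Vav KO than in Tie2 WT at 0.81 by the authors' deposited table. Whether reads from the Cre transgenes add to the Tek and Vav1 values was not tested. Of 9 markers of erythro-myeloid progenitors, 0 had a row for Tie2 KO against Tie2 WT, and against Vav KO 1 was lower, Csf1r at -1.33 by the authors' deposited table. Of markers of other yolk sac cells, Tie2 KO was higher than Tie2 WT at 2 of 5 endothelial genes (Cdh5 and Tek), 3 of 4 mesodermal genes (Hand1, Pdgfra and Twist2) and 1 of 4 endodermal genes (Foxa2), and lower at 1 endothelial gene, Pecam1. Tek, counted here as endothelial, is also the source of the Tie2-Cre regulatory sequence. Besides Tek, the endothelial genes went both ways against Tie2 WT, Cdh5 at 0.84 and Pecam1 at -0.77 by the authors' deposited table. Against Vav KO, Tie2 KO was higher at 2 of 5 endothelial (Kdr and Tek), 3 of 4 mesodermal and 1 of 4 endodermal genes. The share of higher protein-coding genes was 11.5% against Tie2 WT and 11.1% against Vav KO, and that of lower ones 2.51% and 6.35%. In Vav KO against Tie2 WT the marker genes went both ways. Higher were 1 of 9 progenitor markers (Csf1r at 0.92) and 1 of 4 mesodermal genes (Twist2 at 1.33), by the authors' deposited table. Lower were 1 of 4 mesodermal genes (Pdgfra at -1.57) and 1 of 4 endodermal genes (Foxa2 at -1.53), by the authors' deposited table. Of protein-coding genes, 5.29% were higher and 2.59% lower in that comparison. The lists give no level of these markers in any group, and their part in the Irx and Six-family values was not tested.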

How the data were processed

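ATAC-seq libraries of 14 samples in 4 groups were made. Per the submitters' processing notes, reads were handled in build mm10 with tools that include MACS2 2.1.2, HOMER 4.10 and SAMtools 1.3.1. Read shifting, scaling, the test and any pooling of replicates are not given. Per the file headers, the authors deposited log2 fold changes, adjusted p-values (the largest 0.0479) and other measures, width and distance in bp. List names were taken to mean Tie2 KO, Vav KO and Tie2 WT, the first-named group on top.

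Rows were selected by symbol with Python 3.11.15 and pandas 2.3.3. Of 6687 gene identifiers, 6679 were found in the RefSeq table of GRCm38.p6. Of these, 2680 had the same start and end there as in the lists, and 72.6% had the same start or end. The 21900 protein-coding genes of that table were the background, and it placed Irx1 and Irx4. No test was run, for want of values per sample. Interval handling was tested on simulated intervals. Alternatives were stricter thresholds, other pairings of regions with genes, merging within 1 kb and other values per gene. Named genes are the members, genes sharing their regions or clusters, genes of the lists and those nearest in profile. Members and lists were chosen with earlier results of these data known. Some results of the gene lists are not reported here.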

Additional observations from a re-analysis of the deposited data

Results flagged for a closer look

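At 9 member regions Tie2 KO was higher than Tie2 WT and, in an overlapping region, also higher than Vav KO by the authors' own test, so the knockouts differ there. How many regions of the whole lists do the same was not computed. The authors' deposited table has log2 fold changes of Tie2 KO against Vav KO of 4.72 at Irx2, 3.01 at Six6 and 1.64 at Six3. By the authors' deposited table they were 1.72, 1.43 and 1.37 at Irx3, 1.22 at Irx6, and 1.03 and 1.11 at Six2. No list sets Vav KO against Vav WT, so a difference between the Cre lines and one between the deletions cannot be told apart.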

How the results depend on the processing

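Of 100 recomputed values, 82 stayed within 1.5 times the count or within the SD over member regions, 9 moved and 9 changed sign. Part of the 82 could not change. The limit of adjusted p at 0.01 removed no member region, since the largest value was 0.00984. Counts of 0 lower regions cannot rise under a stricter threshold. With only regions covering a gene start, the genes counted for Tie2 KO against Tie2 WT were 2 in place of 6 and the regions 2 in place of 9. Under the same setting the regions between the knockouts were 5 in place of 12, and Vav KO against Tie2 WT had 0 genes and 0 regions. Pairing by position, chosen after seeing the data, gave 14 regions against Tie2 WT. The difference of the Irx clusters in Tie2 KO against Vav KO, 2.04, was 0.74 by position and 3.5 with either the largest fold change or the smallest adjusted p per gene. It had no value for regions covering a start, as no region paired with Irx2 covers its start as given in the lists. The sign of the median of the Irx genes minus that of the Six-family genes was not stable. Against Tie2 WT this difference, -0.05, was 0.03 with the closest gene, 0.26 with covered starts, 0.03 by position, 0.04 with the largest fold change and 0.2 with the smallest adjusted p. Against Vav KO, where it was 0.31, it was -0.21 with covered starts, -0.17 with the largest fold change, -0.31 with the median per gene and -0.17 with the smallest adjusted p. The cause was not tested. No paired analysis was possible because the lists carry nothing per sample and the groups compared share no replicate number. A gene with no row may have regions that missed the authors' thresholds.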

Other observations

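Genes most like the members in profile were sought over the 3 comparisons, with the largest log2 fold change of a gene in each, from the authors' deposited table, and 0 where it had no row. The 4 Irx genes with a row averaged 0.90 in Tie2 KO against Tie2 WT, 0 in Vav KO against Tie2 WT and 2.06 in Tie2 KO against Vav KO, where Irx2 had 4.72 and the others 1.72, 0.6 and 1.22. Closest to this mean by Euclidean distance were Pnma2 (0.031), Sympk (0.055) and Zswim6 (0.069). The 3 Six-family members averaged 1.22, 0.45 and 1.92 in the same comparisons, the 0.45 resting on Six2 alone, and the closest genes were Phactr3 (0.405), Grm3 (0.45) and Pmepa1 (0.451). Likeness to a mean is not likeness to any one member, and the comparisons share samples, so these distances are a description.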
